A study of Columba livia with 10 samples.

Results

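The mitochondrial carrier family, SLC25, was followed in cerebellum RNA of racing homers, pigeons bred for flying home to the loft. All gene rows named SLC25A and a number were taken, and those with a mean of at least 1 CPM over the 10 libraries were kept (CPM, gene counts scaled to a common library total). The tables held 39 such names, and all 39 reached that mean, out of 22547 gene rows in all. The race group was 5 birds killed on their return from a 300 km competition. The control group was 5 birds of matching age from that loft that had stayed home on race day. Birds of both groups were raised in a single loft and trained by the widowhood method, in which males and females are kept apart between flights. The labels report no strain beyond racing homer, no sex, no exact age and no time between landing and death.

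RNA sequencing counts of the 10 libraries summed to between 17953704 and 23344086 over genes. The library number in the name of 9 of the 10 tables differs from that in the title of the sample it is attached to, and going by titles instead would put 6 tables in the opposite group. The attachment sets the groups below, and every direction below rests on it. Between 93 and 95 of the 195 annotated W-linked protein-coding genes reached 1 CPM in control 3, control 4 and control 5, against 24 to 33 in the other 7 libraries, race birds included. W-linked expression was thus unbalanced between the groups, and the labels give no sex. A comparison of all race with all control libraries cannot fully separate race from this difference. Control 1 had the lowest median Spearman correlation with the others, 0.879 against 0.947 to 0.977, and a TMM factor of 0.795. The 6 forebrain markers in the tables summed to 23.0 to 42.9 CPM in race libraries, 331 CPM in control 4 and 25.4 to 41.3 CPM in the remaining controls. Markers of granule cells, which are neurons of the cerebellum, were present in all libraries. Of 9 listed genes 8 were in the tables, with sums of 3549 to 4764 CPM in race and 2320.3 to 4852 CPM in control libraries.

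Most SLC25 proteins sit in the inner mitochondrial membrane, where each moves a small set of solutes between the cytosol and the matrix, usually by exchange. They share a fold built from repeats of a pair of membrane helices, and they reach the membrane through the TIM22 import pathway. In the brain the carriers of ADP and ATP, phosphate, aspartate and glutamate connect respiration to synaptic energy demand, nitrogen metabolism and transmitter supply.

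Levels are given below as CPM scaled by the TMM factors of edgeR, and fold changes are log2 of race over control. Their standard error was derived from edgeR's quasi-likelihood test, as the absolute fold change over the square root of its F statistic. No SLC25 gene passed an adjusted p of 0.05. The lowest adjusted p in the family was 0.324, for SLC25A38, and 0 of 14172 genes tested passed (0%). At an unadjusted p under 0.05 there were 2 carriers higher in race libraries, SLC25A38 and SLC25A4, where 6.19% of all genes were, and 1 lower, SLC25A37, where 7.14% of all genes were. Limma voom called 0 carriers and 0 genes (0%), and DESeq2 called 0 carriers where it called 261 genes, or 1.9% of those with an adjusted p. Of the 39 carriers 21 had a negative fold change, or 53.8%, beside 52.6% of all genes. With offsets for gene span 27 of 39 had one, or 69.2%, beside 64.4% of all genes. Those offsets were fitted to CPM by library total and applied on top of the TMM factors. They thus correct shifts of whole libraries a further time, and the count of 27 does not reflect gene span alone. The carriers' median without offsets was -0.14, beside -0.026 over all genes, and -0.023 without control 1. Only SLC25A33 had race and control libraries that did not overlap, with race lower, a pattern found in 1.67% of all genes. In the other direction there were 0 carriers, and 2.65% of genes.

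**Figure D1:**
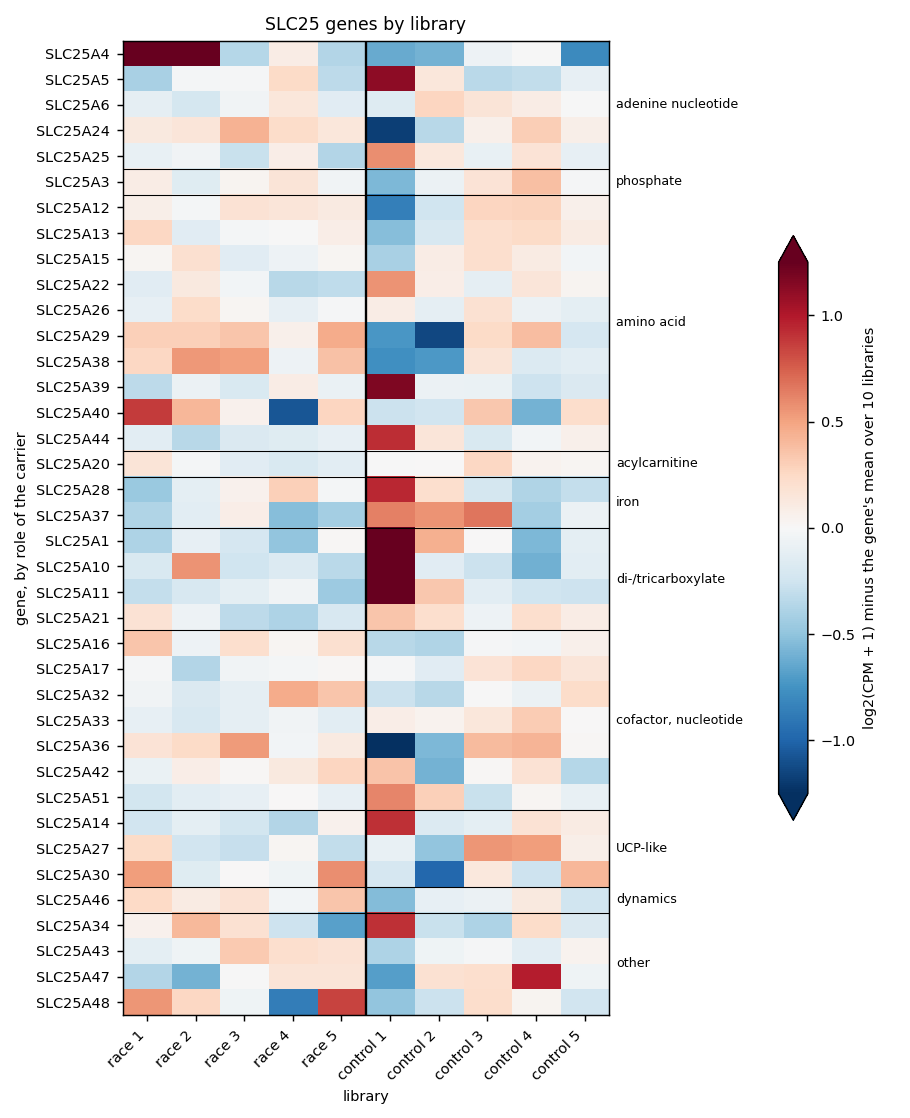
Each cell is the log2(CPM + 1) of a carrier with values reported here in a library minus its mean over the 10 libraries (TMM-scaled, colours capped at the ends of the scale), with 5 race libraries left of 5 control libraries and genes ordered by role. The strongest colours are in control 1, where 14 of the 39 carriers had their highest and 10 their lowest value, and in the SLC25A4 row, where race 1 and race 2 stand above the rest.

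The carriers' median coefficient of variation over the 10 libraries was 25.7%, against 31.3% over 13458 genes with a mean of at least 1 CPM. In 17 of the 39 the highest library was below 2 times the lowest, and this held for 23.6% of those genes. Those genes were not matched to the carriers for level, so neither comparison shows a trait of the family. SLC25A26, which imports S-adenosylmethionine for methylation inside mitochondria, and SLC25A20 were the steadiest at 9.84% and 10.1%, and SLC25A4 and SLC25A10 the most variable at 72.6% and 63.9%. Control 1 held the highest value of 14 carriers and the lowest of 10, and over all genes it was the highest library in 32.2% and the lowest in 33.3%.

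**Figure D2:**
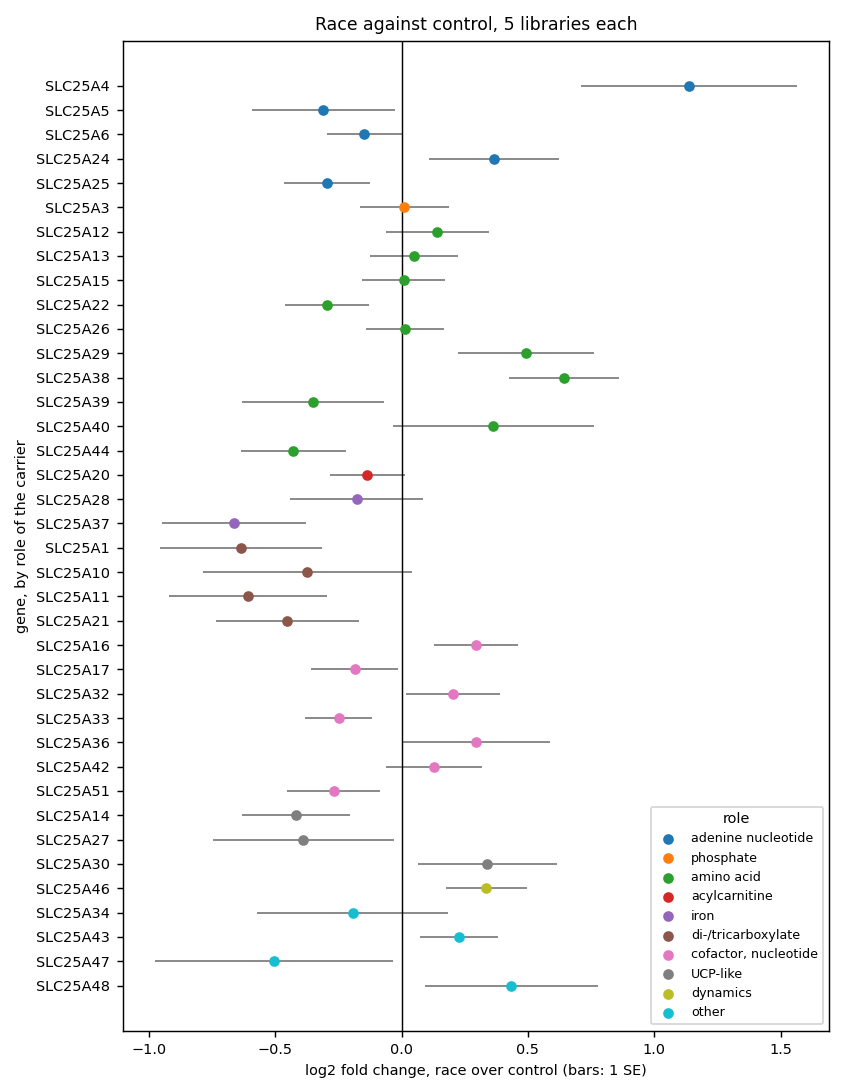
The log2 fold change of each carrier reported by value, race over control (n = 5 libraries each), with bars of 1 SE and colours by role. Only SLC25A4 lies beyond 1 on the log2 scale, at 1.14, all di- and tricarboxylate carriers lie below 0, and no carrier passed an adjusted p of 0.05.

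The adenine nucleotide group held 5 carriers. SLC25A4, SLC25A5 and SLC25A6 export matrix ATP in exchange for cytosolic ADP, and SLC25A24 and SLC25A25 exchange ATP-Mg for phosphate under control of cytosolic calcium. SLC25A4, the form of heart and skeletal muscle in mammals, stood at 21.8, 21.6, 5.91, 8.38 and 5.86 CPM in race 1 to race 5, against 4.69, 4.87, 7.42, 7.78 and 4.06 CPM in control 1 to control 5. Race 1 and race 2 were more than 2 times as high as every other library, while race 3, race 4 and race 5 lay within or just above the control range. The log2 fold change was 1.14 ± 0.43 (SE, n = 5 each, edgeR adjusted p = 0.334), and 0.85 to 1.32 with 1 library left out, lowest without race 1. Without both race 1 and race 2, a choice made after seeing the data, it was 0.22. With groups taken from the sample titles it was -0.81.

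SLC25A6, which humans express in most tissues, stood at 853, 792, 896, 1019 and 834 CPM in race 1 to race 5, against 824, 1112, 1033, 983 and 917 CPM in control 1 to control 5. The groups overlapped, control 1 was the lowest control, and the fold change was -0.15 ± 0.15 (edgeR adjusted p = 0.638). SLC25A5, a form raised in dividing cells in mammals, stood at 43.2, 56.5, 57.0, 68.1 and 45.5 CPM in race 1 to race 5, against 126, 63.6, 45.2, 46.4 and 53.5 CPM in control 1 to control 5. Control 1 lay far above the other 9 libraries, and the fold change of -0.31 ± 0.28 became 0.034 without it. Reads that match more than 1 of these related genes could be lost to or split between them, so their counts carry that uncertainty.

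The calcium-regulated ATP-Mg carriers pointed in opposite directions. SLC25A24 stood at 22.6, 22.9, 28.2, 24.2 and 22.8 CPM in race 1 to race 5, against 8.57, 15.9, 21.6, 25.8 and 21.7 CPM in control 1 to control 5. Control 1 and control 2 were the lowest libraries, and the other controls lay within the race values or close to them. Its fold change was 0.37 ± 0.26, and 0.17 without control 1. SLC25A25 stood at 82.4, 85.0, 72.5, 93.3 and 68.2 CPM in race 1 to race 5, against 132, 96.6, 82.4, 98.9 and 81.9 CPM in control 1 to control 5. Here control 1 was the highest library and the groups overlapped, with a fold change of -0.29 ± 0.17 (edgeR adjusted p = 0.444) that was -0.18 without control 1.

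SLC25A3 brings phosphate into the matrix for ATP synthesis and also carries copper for cytochrome oxidase. It stood at 208, 174, 199, 217 and 189 CPM in race 1 to race 5, against 131, 184, 218, 252 and 193 CPM in control 1 to control 5. All race values fell inside the control range, whose lowest value was control 1. The carrier averaged 197 ± 16.5 CPM in race and 196 ± 44.8 CPM in control libraries (SD, n = 5 each), a fold change of 0.012 ± 0.18 (edgeR adjusted p = 0.983). It was -0.12 without control 1, and also negative without control 2, race 1 or race 4.

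**Figure D3:**
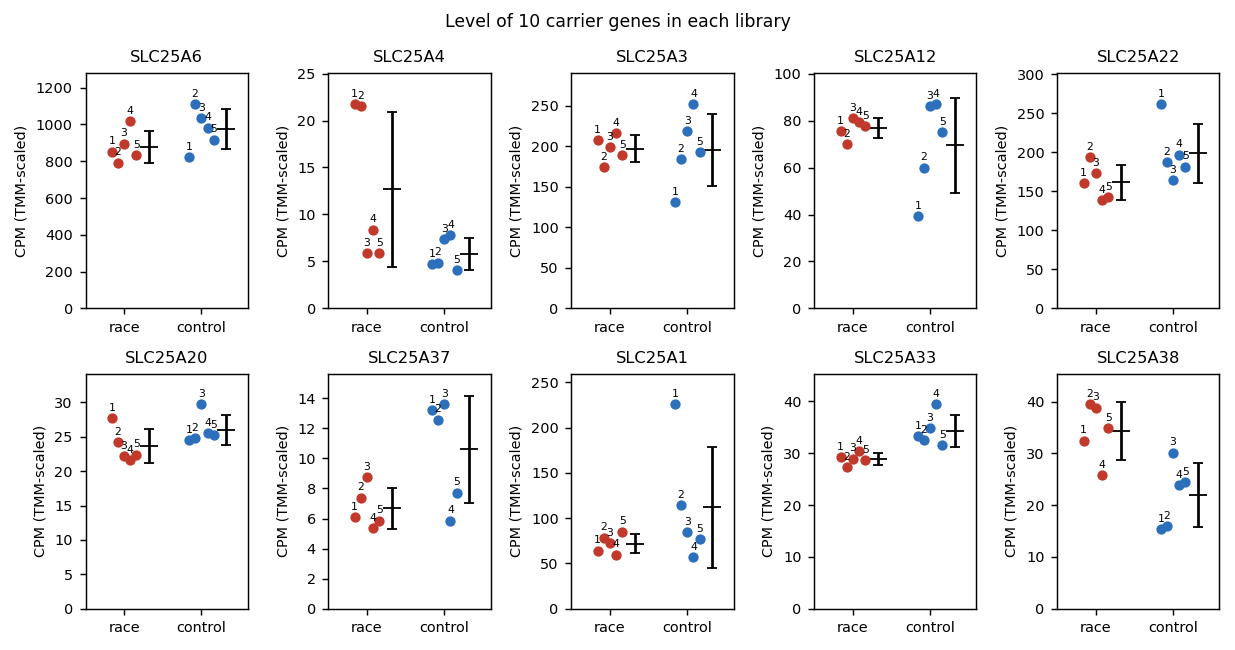
TMM-scaled CPM of 10 carriers in each library, race left of control, with numbers giving the library within its group and bars the mean ± SD (n = 5). SLC25A33 is the 1 carrier without overlap, SLC25A4 is high in race 1 and race 2, and control 1 is the extreme control library for SLC25A3, SLC25A12, SLC25A22 and SLC25A1.

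A list of outer membrane channels and other proteins linked to ADP and ATP or to their carriers was compared beside these carriers. Of 12 listed genes 8 were tested, 0 passed, and all 8 had negative fold changes with a median of -0.25, where 52.6% of all genes were negative. Among those of smallest p were ATP5IF1, an inhibitor of ATP synthase hydrolysis, at -0.51 ± 0.20, and the outer membrane protein TSPO at -0.38. ATP5IF1 stood at 66.1, 54.5, 66.4, 74.0 and 55.0 CPM in race 1 to race 5, against 129, 97.9, 63.0, 83.3 and 78.3 CPM in control 1 to control 5. Control 3 lay within the race range and the other 4 controls above it. Without control 1 the fold changes of ATP5IF1 and TSPO were -0.37 and -0.27.

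Amino acid carriers made up the largest role with 10 members, 7 with a positive and 3 with a negative fold change and a median of 0.031. SLC25A12 and SLC25A13 exchange matrix aspartate for cytosolic glutamate and are activated by calcium. They serve the malate-aspartate shuttle, which carries reducing equivalents into mitochondria, and SLC25A12 is the main form in mammalian brain. SLC25A12 stood at 75.5, 70.1, 80.9, 79.4 and 77.6 CPM in race 1 to race 5, against 39.2, 60.0, 86.3, 87.1 and 74.9 CPM in control 1 to control 5. The race birds were close together, while the controls spread more widely around them, with control 1 and control 2 lowest.

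SLC25A13 stood at 111, 83.7, 91.2, 92.3 and 98.2 CPM in race 1 to race 5, against 63.7, 80.7, 107, 109.6 and 99.8 CPM in control 1 to control 5. Its lowest libraries were again control 1 and control 2. The fold changes of SLC25A12 and SLC25A13 were 0.14 ± 0.20 and 0.049 ± 0.17, and -0.023 and -0.074 without control 1. SLC25A13 was also negative without control 2 or race 1. The shuttle's enzymes MDH2, GOT2, MDH1 and GOT1 all had negative fold changes, with a median of -0.21 and 0 of 4 passing. GOT2, the mitochondrial aspartate aminotransferase, averaged 211 ± 34.1 CPM in race and 298 ± 165 CPM in control libraries, a fold change of -0.50 ± 0.29 that was -0.11 without control 1, where it reached 589.7 CPM. MDH2 and MDH1, the mitochondrial and cytosolic malate dehydrogenases, stood at -0.26 and -0.16. Without control 1 they stood at -0.17 and -0.30, and with groups by sample title at -0.043 and 0.26. For MDH1 control 1 was the lowest library, at 529 CPM.

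SLC25A22 takes glutamate into the matrix together with protons, and its loss causes an early epilepsy in humans. It stood at 160.4, 193, 173, 139 and 143 CPM in race 1 to race 5, against 262, 188, 164, 197 and 182 CPM in control 1 to control 5. Control 1 was the highest library, the groups overlapped, and the fold change was -0.30 ± 0.17 (edgeR adjusted p = 0.439). SLC25A38 supplies glycine to the matrix, where haem synthesis starts. It stood at 32.4, 39.5, 38.8, 25.8 and 34.9 CPM in race 1 to race 5, against 15.4, 15.9, 30.1, 23.8 and 24.5 CPM in control 1 to control 5. Control 1 and control 2 were far below the race birds, control 4 and control 5 just below them, and control 3 inside their range. Its fold change of 0.64 ± 0.22 had the smallest p of the family, and was 0.52 without control 1, 0.37 without control 1 and control 2, and -0.032 with groups by sample title.

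SLC25A29, a carrier of arginine and lysine, ranged over 47.7 to 63.2 CPM in race and 20.1 to 59.8 CPM in control libraries, with a fold change of 0.49 ± 0.27. Its lowest libraries were control 1 and control 2, at 27.1 and 20.1 CPM, against 39.3 to 59.8 CPM in the other controls. The fold change was 0.37 without control 1 and 0.13 without control 1 and control 2. SLC25A44, which imports branched-chain amino acids, had -0.43 ± 0.21, or -0.20 without control 1, its highest library at 100.4 CPM. The related glutathione carriers SLC25A39 and SLC25A40 stood at -0.35 and 0.36. SLC25A40 ranged over 1.93 to 10.3 CPM in race and 3.06 to 6.73 CPM in control libraries, and its fold change was 0.11 without race 1 and -0.36 with groups by title. SLC25A39 ranged over 19.0 to 25.7 CPM in race libraries, against 55.3 CPM in control 1 and 19.9 to 22.8 CPM in its group mates. Leaving out control 1 put its fold change at 0.025. The ornithine carrier SLC25A15, of the urea cycle in mammals, and the S-adenosylmethionine carrier SLC25A26 stood at 0.0086 ± 0.16 and 0.013 ± 0.16. Both changed sign with single libraries left out, SLC25A15 over -0.099 to 0.067 (negative without control 1, control 5 or race 2) and SLC25A26 over -0.050 to 0.069 (negative without control 2, control 4, control 5 or race 2).

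SLC25A20 exchanges acylcarnitines for carnitine and so admits long-chain fatty acids to oxidation in the matrix. It stood at 27.7, 24.3, 22.2, 21.6 and 22.4 CPM in race 1 to race 5, against 24.5, 24.8, 29.7, 25.6 and 25.2 CPM in control 1 to control 5. The groups overlapped, with race 1 and control 3 the highest libraries. SLC25A20 averaged 23.6 ± 2.50 CPM in race and 26.0 ± 2.14 CPM in control libraries (SD, n = 5 each), a fold change of -0.13 ± 0.15 (edgeR adjusted p = 0.664), and its annotated span overlaps that of ARIH2. Of 6 listed genes of the carnitine shuttle 4 were tested and 0 passed. All 4 were positive with a median of 0.20, where 52.6% of all genes were negative. SLC25A20 had the opposite sign, but lay within 1 SE of 0 and stood at 0.011 with groups by title. CPT2, the carnitine palmitoyltransferase of the inner membrane, had 0.37 ± 0.25, CRAT, which makes short-chain acylcarnitines, 0.21, and CPT1A, the outer membrane enzyme, 0.20. All 3 were lowest in control 1, and without it they stood at 0.20, 0.068 and 0.033.

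Iron enters the matrix through the mitoferrins, SLC25A37, which serves developing red cells in mice and zebrafish, and SLC25A28 of other tissues. SLC25A37 stood at 6.07, 7.39, 8.74, 5.37 and 5.86 CPM in race 1 to race 5, against 13.2, 12.6, 13.6, 5.86 and 7.73 CPM in control 1 to control 5. Control 1, control 2 and control 3 were above all race libraries, and control 4 and control 5 lay inside the race range. The fold change was -0.66 ± 0.28 (edgeR adjusted p = 0.356), or -0.59 without control 1, and it was negative without each single library, at -0.82 to -0.56. Race birds also stood lower than 3 controls in SLC4A1, the chloride-bicarbonate exchanger of red cell membranes. SLC4A1 was at 13.0, 9.13, 8.35, 3.81 and 6.98 CPM in race 1 to race 5, against 38.1, 21.4, 25.1, 5.91 and 8.13 CPM in control 1 to control 5. The 3 controls high in SLC25A37 were the 3 high in SLC4A1. TAL1, a transcription factor of red cell precursors and the other listed gene that reached 1 CPM, did not share that order, at 3.04, 2.75, 4.69, 2.64 and 0.905 CPM in race 1 to race 5, against 2.64, 5.21, 3.31, 1.81 and 1.70 CPM in control 1 to control 5.

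Only 3 of 10 listed red cell genes were in the tables. The sum of the list was 6.45 to 15.99 CPM in race and 7.73 to 40.7 CPM in control libraries, and the haemoglobin gene HBAD was at most 0.0893 CPM. The other listed globin names, HBBA, HBAA and HBZ, were absent, so the HBAD level alone gives no measure of red cell content. The part of red cells in the SLC25A37 values was not tested. In bulk tissue, fewer cells of a type and less RNA per cell cannot be told apart.

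SLC25A28 stood at 38.7, 49.4, 55.9, 66.5 and 52.8 CPM in race 1 to race 5, against 104, 62.6, 46.0, 41.3 and 43.5 CPM in control 1 to control 5. Control 1 was the highest library by a wide margin and the others overlapped. Its fold change of -0.18 ± 0.26 was 0.11 without control 1, and its span overlaps that of ENTPD7. Of 13 listed genes that use mitochondrial iron 10 were tested and 0 passed, with 5 positive, 5 negative and a median of 0.056. ABCB10, an inner membrane transporter that stabilises SLC25A37 in mouse red cells, stood at 0.50 ± 0.21. GLRX5 and LYRM4, both of iron-sulphur cluster assembly, had all race libraries below all controls, a pattern found in 1.67% of all genes. Their fold changes were -0.31 ± 0.14 and -0.20 ± 0.14, and 0.10 and 0.068 with groups by title.

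The 4 carriers of di- and tricarboxylates all had negative fold changes, with a median of -0.53 and 0 passing. SLC25A1 exports citrate, the source of cytosolic acetyl-CoA. It stood at 64.2, 78.5, 72.6, 59.7 and 85.2 CPM in race 1 to race 5, against 226, 115, 84.6, 56.8 and 77.2 CPM in control 1 to control 5. Control 1 was far above every other library and control 2 next, while control 3, control 4 and control 5 overlapped the race birds. The fold change of -0.63 ± 0.32 was -0.23 without control 1 and -0.038 without control 1 and control 2.

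SLC25A11, the oxoglutarate-malate carrier of the malate-aspartate shuttle, was also highest in control 1 and control 2. It was at 82.3 to 109.7 CPM in race libraries, against 305 CPM in control 1, 143 CPM in control 2 and 94.1 to 103 CPM in the other controls, with a fold change of -0.61 ± 0.31, or -0.18 without control 1. For SLC25A10, which exchanges malate or succinate for phosphate, the fold change was -0.37 ± 0.41 and 0.24 without control 1. SLC25A21, a carrier of oxoadipate from lysine breakdown, lay near the lower limit of the family at 1.41 to 2.58 CPM in race and 2.03 to 3.02 CPM in control libraries, with a fold change of -0.45 ± 0.28. Its values without single libraries were -0.60 to -0.38.

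Among 8 carriers of cofactors and other nucleotides 4 had positive and 4 negative fold changes. SLC25A33 carries pyrimidine nucleotides and supports mitochondrial DNA and RNA synthesis. It stood at 29.3, 27.3, 29.0, 30.4 and 28.7 CPM in race 1 to race 5, against 33.3, 32.5, 34.9, 39.5 and 31.6 CPM in control 1 to control 5. Every race library was below every control, although the closest values, race 4 and control 5, differed little. The fold change was -0.25 ± 0.13 (edgeR adjusted p = 0.427), and without single libraries -0.28 to -0.19, but 0.13 with groups by sample title. SLC25A36, the related pyrimidine carrier, had a positive fold change, 0.30 ± 0.29, and 0.084 without control 1.

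SLC25A51, which imports NAD+ and lies on the Z chromosome, ranged over 25.6 to 30.1 CPM in race and 24.7 to 46.5 CPM in control libraries. Control 1 and control 2 were highest, and the controls with more W-linked expression, at 24.7 to 30.6 CPM, overlapped the race birds. The fold change was -0.27 ± 0.18. SLC25A42, which carries coenzyme A, and SLC25A32, which carries folate and FAD, stood at 0.13 and 0.20. SLC25A17 of peroxisomes, a carrier of coenzyme A, FAD and NAD+, had -0.18 ± 0.17, and SLC25A16 0.29 ± 0.17.

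Of 3 carriers that resemble the uncoupling proteins, SLC25A14 had the smallest p. It stood at 49.4, 53.4, 49.6, 45.1 and 60.7 CPM in race 1 to race 5, against 111, 51.6, 53.5, 66.5 and 62.8 CPM in control 1 to control 5. Control 1 stood far above every other library, the groups overlapped, and the fold change of -0.42 ± 0.21 was -0.20 without control 1. SLC25A27 and SLC25A30 stood at -0.39 ± 0.36 and 0.34 ± 0.28. SLC25A46, an outer membrane protein of mitochondrial fission and fusion whose loss damages optic nerve and cerebellum in humans, lies on the Z chromosome. It stood at 42.5, 38.4, 40.4, 34.7 and 45.6 CPM in race 1 to race 5, against 24.2, 33.0, 33.8, 38.9 and 29.8 CPM in control 1 to control 5. Control 2 and control 3 were just below the lowest race library, control 5 and control 1 lower still, and control 4 was inside the race range. The fold change was 0.34 ± 0.16 (edgeR adjusted p = 0.389), or 0.034 with groups by title. It was 0.23 without control 1, 0.50 without control 3 to control 5, and 0.22 without control 1 and control 2.

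The 4 carriers left were assigned no transport role. SLC25A43 stood at 31.9, 33.4, 43.9, 40.2 and 39.4 CPM in race 1 to race 5, against 26.3, 33.4, 34.4, 31.5 and 35.8 CPM in control 1 to control 5. Its groups overlapped, with a fold change of 0.23 ± 0.15, or 0.14 without control 1. SLC25A5, the nearest other carrier on its chromosome in the bColLiv1.pat.W.v2 assembly, had -0.31, or 0.034 without control 1. SLC25A48, SLC25A34 and SLC25A47 were at 0.43 ± 0.34, -0.19 ± 0.38 and -0.51 ± 0.47. Single libraries moved each of them, SLC25A48 to 0.22 without race 5, SLC25A34 to 0.14 without control 1 and SLC25A47 to -0.088 without control 4. SLC25A47 had as few as 12 counts in a library, and 7 carriers had fewer than 100 in at least 1 library. MTCH2 and MTCH1, family members of the outer membrane under other symbols, stood at -0.30 ± 0.23 and -0.29 ± 0.23, and at -0.041 and -0.024 without control 1.

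Import factors of the TIM22 pathway, which insert carriers into the inner membrane, had 10 of 13 listed genes tested, 8 negative and 0 passing, with a median of -0.26. TIMM29, a subunit of the TIM22 complex, had -0.85 ± 0.32. TIMM10, a chaperone of the intermembrane space, stood at 10.6, 8.75, 10.3, 8.15 and 11.0 CPM in race 1 to race 5, against 30.7, 11.7, 11.3, 11.3 and 11.5 CPM in control 1 to control 5. All race libraries were below all controls, a pattern found in 1.67% of all genes. However, control 2 to control 5 were within 1 CPM of the highest race library, and the fold change of -0.65 ± 0.31 was -0.25 without control 1. TIMM13, a chaperone of the same kind, had -0.48, and TIMM29 and TIMM13 stood at -0.56 and -0.18 without control 1.

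Other transport proteins of the inner membrane had 12 genes tested, 5 positive and 7 negative, with 0 passing. In 4 the libraries did not overlap, 2 with race lower, where 1.67% of all genes were, and 2 with race higher, where 2.65% were. MPC1 and MPC2 form the mitochondrial pyruvate carrier. MPC1 stood at 136, 110.3, 105, 119.9 and 134 CPM in race 1 to race 5, against 144, 185, 162, 140.4 and 161 CPM in control 1 to control 5. MPC2 stood at 50.6, 43.2, 53.7, 54.4 and 49.5 CPM in race 1 to race 5, against 97.9, 72.0, 60.1, 60.4 and 64.6 CPM in control 1 to control 5. In both genes every race library was below every control. The fold changes of MPC1 and MPC2 were -0.39 ± 0.14 and -0.50 ± 0.17 (edgeR adjusted p = 0.328 and 0.324), -0.44 and -0.37 without control 1, and 0.077 and -0.13 with groups by title. MICU3 and MICU2, which gate the calcium uniporter, had every race library above every control, with fold changes of 0.47 ± 0.20 and 0.62 ± 0.29, or 0.30 and 0.44 without control 1. MICU2 was at 18.6 and 18.3 CPM in control 1 and control 2, and at 43.5 to 51.0 CPM in the other controls, the highest of which lay just under race 4.

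The control libraries themselves fell into sets, in carriers at shares near those of all genes. In 13 carriers control 3, control 4 and control 5 were all above control 1 and control 2, and in 8 all below, which is 33.3% and 20.5% of the family beside 28% and 24% of all genes. Race birds were all above control 1 and control 2 in 11 carriers and all below in 8, beside 22.1% and 19.5% of all genes, and these are 28.2% and 20.5% of the family. They were all above control 3, control 4 and control 5 in 0 carriers and all below in 2, SLC25A17 and SLC25A33, beside 6.9% and 5.73% of all genes. Compared with control 1 and control 2 alone, 9 of 39 carriers, or 23.1%, passed an adjusted p of 0.05 by edgeR's quasi-likelihood test, beside 23.2% of all genes tested, 4 of them higher (all genes 10.5%) and 5 lower (all genes 12.7%). They were SLC25A29 at 1.26, SLC25A38 at 1.13, SLC25A36 at 1.12 and SLC25A24 at 0.98, higher in race birds, and SLC25A1 at -1.24, SLC25A11 at -1.20, SLC25A37 at -0.94, SLC25A44 at -0.78 and SLC25A51 at -0.59, lower. The share of carriers was close to that of all genes. Against control 1 alone 20 carriers passed, beside 44.7% of genes, and against control 2 alone only SLC25A29, beside 1.96% of genes, with the lone control assumed to vary like the race libraries. With control 3, control 4 and control 5 as the only controls, 0 carriers passed, where 106 genes, or 0.727%, did. These controls all had more W-linked expression than every race bird, so race cannot be told apart from that difference in this fit. The same limit holds for every value given without control 1 and control 2.

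**Figure D4:**
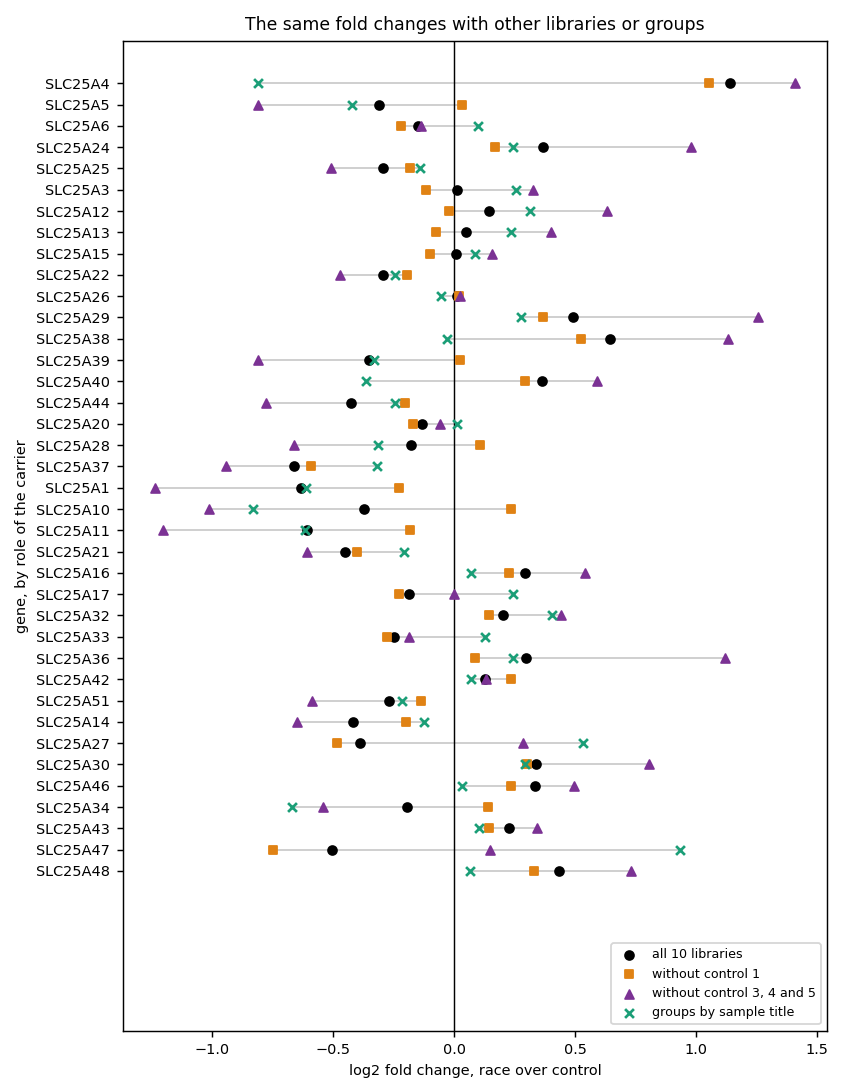
The log2 fold change of each carrier reported by value, race over control, with all 10 libraries, without control 1, without control 3 to control 5, and with groups taken from sample titles, with a grey line joining the 4 values. SLC25A4, SLC25A47, SLC25A10 and SLC25A38 have the widest spread of the 4 values, and SLC25A4 lies at 1.14 by attachment and -0.81 by title.

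Markers of glia and neurons were set beside the carriers. Of 8 listed oligodendrocyte markers 6 were in the tables and all 6 had negative fold changes, with sums of 1728 to 3971 CPM in race and 2484 to 5652 CPM in control libraries. The sum of 7 astrocyte and Bergmann glia markers was 925 to 1474 CPM in race and 1396 to 3344 CPM in control libraries. Of these 7, 6 had negative fold changes, with a median of -0.21. GFAP weighed heavily on that sum, at 307 to 855 CPM in race and 394 to 2671 CPM in control libraries. SLC1A3 was at 227 to 671 and 185 to 612 CPM, and AQP4 at 83.3 to 164 and 66.8 to 183 CPM. The sum of 7 Purkinje cell markers was 1274 to 1626 CPM in race and 1221 to 1746 CPM in control libraries. Of the 6 tested, 4 had negative fold changes, with a median of -0.055. Granule cell markers leaned the other way, with 2 of 8 negative and a median of 0.185. The share of reads that matched no annotated feature was 19.4% to 20.8% in race and 15.1% to 20.0% in control libraries. The part of these differences in the carrier values was not tested.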

How the data were processed

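Cerebellum RNA from 10 birds was sequenced as 100 bp pairs, per the labels' protocols. For each sample the authors deposited a table of raw read counts by gene. The submitters' processing notes name fastp 0.23.2, STAR 2.7.10a and HTSeq 0.13.5. Genome build, annotation and strand setting were not given in the sources used here. Rows that name no gene held 18.1% to 23.4% of counts and stayed out. Of 39 carriers, 12 have a span that overlaps another gene in RefSeq assembly bColLiv1.pat.W.v2, so their counts are uncertain.

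Genes passing filterByExpr (minimum count 10) numbered 14172. Race was compared with control by edgeR 4.0.16's quasi-likelihood test (two-sided, TMM, Benjamini-Hochberg over all genes, threshold 0.05), in R 4.3.3 with limma 3.58.1 and DESeq2 1.42.0 as alternatives, beside other scalings, filters and left-out libraries. The procedure was also run on simulated counts with known fold changes, drawn from a common mean per gene. Those counts held no outlying library and no sets of controls, so the run cannot show how the procedure behaves on these libraries. Libraries of a group are separate birds by the labels. Members and lists were chosen with earlier results of these data known. Values by library are given for carriers of the main roles, the carrier of smallest p in the other roles and any without overlap. Of each partner list the 3 genes of smallest p and any without overlap are named. Values of 1 carrier and 2 partner genes are not reported here, though list counts and medians include them. SLC4A1, TAL1 and HBAD were chosen after their values were seen.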

Additional observations from a re-analysis of the deposited data

Results flagged for a closer look

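Within each group of 5 libraries, a carrier's highest or lowest value was set against the others by Dixon's criterion, and 9 of 78 groups held a value far from the rest, or 11.5%, where chance gives about 1 in 20 and 13.1% of such groups over all genes of at least 1 CPM held one. In control 1 this was so for 6 carriers, or 15.4%, beside 14.9% of all those genes. SLC25A10 was at 39.1 CPM there and at 8.14 to 11.7 CPM in the other controls. SLC25A11 was at 305 CPM, against 94.1 to 143 CPM. SLC25A14 was at 110.8 CPM, against 51.6 to 66.5 CPM. SLC25A39 was at 55.3 CPM, against 19.9 to 22.8 CPM. SLC25A44 was at 100.4 CPM, against 45.7 to 58.4 CPM. SLC25A5 was at 126 CPM, against 45.2 to 63.6 CPM. In race 2, SLC25A10 was high at 19.5 CPM, against 9.96 to 11.3 CPM in the other race libraries, and SLC25A17 low at 11.6 CPM, against 14.8 to 15.4 CPM. In control 3, SLC25A20 was high at 29.7 CPM, against 24.5 to 25.6 CPM.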

How the results depend on the processing

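No carrier passed under any setting tried with all 10 libraries or with 1 left out, nor without control 1 and control 2 or control 1 and control 4, and 9 passed without control 3, control 4 and control 5. The number of genes that passed, 0 with all libraries, was 261 by DESeq2, 3 with groups by sample title, 3416 without control 3 to control 5, 40 without control 1 and control 4, 106 without control 1 and control 2, and 0 to 1 with 1 library left out. The carriers' median of -0.14 was -0.032 by plain library size, where the median of all genes was 0.075 (carriers less all genes -0.11, against -0.11 by TMM and 0.031 with gene span offsets, where all genes had -0.15), 0.0086 for carriers of at least 5 CPM, 0.034 by title, 0.022 without control 3 to control 5, -0.014 without control 1 and control 4, -0.021 without control 1 and control 2, and -0.17 to -0.023 with 1 library left out, the higher end without control 1. Direction changed in 11 carriers by title, 11 without control 1 and control 2, 9 without control 1, 7 without control 1 and control 4, and gene span offsets changed it in 6. The span offset, the fits without control 1 and control 2 or without race 1 and race 2, and those against a lone control were chosen after seeing the data. The fit without control 3 to control 5 was planned, but its split of the controls was known from earlier results of these data. The cause of these shifts was not tested.

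Without control 3 to control 5, medians were -1.11 for di- and tricarboxylate, 0.28 for amino acid, 0.28 for uncoupling-like, -0.80 for iron and 0.24 for unassigned carriers, -0.69 for the MTCH genes, -0.48 for import, -0.43 for the shuttle and -0.22 for other inner membrane genes. SLC25A27 and SLC25A47 turned to 0.28 and 0.15. Without control 1 and control 2, the di- and tricarboxylate median was -0.030 and the adenine nucleotide median 0.050 (-0.22 to 0.034 with 1 library left out), while SLC25A36, SLC25A39, SLC25A5, MTCH2 and MTCH1 turned to -0.089, 0.049, 0.14, 0.00401 and 0.068. With 1 library left out, SLC25A39 ran from -0.45 to 0.025 and SLC25A5 from -0.42 to 0.034. Without control 1 and control 4, unassigned carriers had a median of 0.22 and CPT1A -0.00994.

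By sample title, medians were 0.29 for uncoupling-like carriers, 0.00362 for ADP/ATP partners and 0.00703 for other inner membrane genes. SLC25A17, SLC25A27, SLC25A33, SLC25A38, SLC25A4 and SLC25A47 turned to 0.24, 0.53, 0.13, -0.032, -0.81 and 0.93, and CPT2, GLRX5, LYRM4 and MPC1 to -0.18, 0.10, 0.068 and 0.077. Plain library size gave -0.14 for ADP/ATP partners, 0.16 for iron use and 0.024 for other inner membrane genes. Gene span offsets gave -0.14 for amino acid carriers, -0.055 for iron use, -0.31 for other inner membrane genes and -0.00971 for CPT1A. No paired analysis was possible because the labels give no replicate numbers, and the numbers used here only name the birds of a group.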
